A study of Sus scrofa with 10 samples.

Results

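The 10 libraries of pig morulae were ranked by how much oocyte-type messenger RNA they still held, and the 5 highest were set against the 5 lowest. The classes were thus chosen by measured expression, and the grouping comes from the data and not from the labels. Each library was scored by the mean of log2(CPM + 1), where CPM is a gene's count scaled to the library's total count, over the oocyte genes ZP2, ZP3, ZP4, GDF9, BMP15 and BTG4. A further scoring gene, NLRP5, is not a gene name in the table, so 6 of 7 scoring genes were used. All 10 libraries of the series entered the comparison, 5 as maternal-transcript-high and 5 as maternal-transcript-low libraries. The scoring genes chose the libraries, so their values are given as a description and are left out of every count below.

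The embryos came from matured pig oocytes that received an siRNA by injection, were activated without sperm (parthenogenetic activation) and then grew in culture to the morula, the stage before the blastocyst. The siRNA was directed against DDB1 in 5 libraries (DDB1_KD, here KD1 to KD5) and was a non-specific control in the other 5 (NC, here NC1 to NC5). All libraries thus share injection, activation and culture, and parthenogenetic embryos carry no paternal genome. How many embryos a library pooled was not given in the sources used here. Separate cultures for the replicates are not stated there either, so the p-values describe how far these 10 libraries scatter, and that scatter may be technical in part.

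As background, the oocyte stocks messenger RNA for the zona pellucida coat, for growth factors that act on cumulus cells, for meiotic arrest and for the first cleavages. Much of this RNA is degraded in steps before and while the embryo's own genome is switched on. BTG4 is an adaptor that brings the CCR4-NOT deadenylase to maternal messages, and CPEB1 is a protein that controls their polyadenylation. A morula that has passed genome activation transcribes pluripotency and trophectoderm genes. In bulk RNA, fewer embryos or cells of a kind and less RNA per cell cannot be told apart.

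The score ran from 5.41 in KD2, through 4.81 in KD3, 4.64 in KD5 and 4.31 in NC3, to 3.55 in KD4. The 5 low libraries were NC2 at 3.53, NC1 at 3.23, NC4 at 2.60, NC5 at 2.40 and KD1 at 2.04. The high libraries therefore held 4 DDB1_KD and 1 NC library, and the low libraries 4 NC and 1 DDB1_KD library. Class and treatment are nearly the same split, and with treatment in the fit the class difference rests on KD1 against the other DDB1_KD libraries and on NC3 against the other NC libraries. The gap at the boundary, between KD4 and NC2, was 0.021 of a range of 3.377. On FPKM in place of CPM, or with GDF9, BMP15 and BTG4 alone, KD4 and NC2 changed places.

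The scoring genes did not fall off evenly. In the order KD2, KD3, KD5, NC3, KD4, the zona gene ZP4 stood at 51.5, 22.7, 12.7, 9.10 and 5.70 CPM in the high libraries. It stood at 5.12, 3.23, 2.99, 3.17 and 3.17 CPM in the low libraries, in the order NC2, NC1, NC4, NC5, KD1. GDF9, an oocyte growth factor, ranged from 14.5 to 45.8 CPM in the high and from 5.62 to 12.6 CPM in the low libraries, and ZP4 and GDF9 were the 2 scoring genes whose classes did not overlap. BMP15, its partner growth factor, ranged from 8.84 CPM in KD4 to 50.6 CPM in KD5 within the high class. Among the low libraries BMP15 was at 9.05 CPM in NC2, 10.5 in NC1, 4.05 in NC4, 1.26 in NC5 and 0.578 in KD1. ZP2 did not separate the classes, with 10.5 CPM in KD4 and 10.6 CPM in NC5 between 15.8 to 23.4 CPM in the other high and 2.97 to 5.9966 CPM in the other low libraries. BTG4 had the widest spread, from 660 CPM in KD2 to 2.435 CPM in NC5, and NC2 at 122 CPM was above 4 of the 5 high libraries. ZP3 was the lowest of the 6 in most libraries, at 6.98 CPM at most, and KD1 at 3.24 CPM was above 3 of the high libraries.

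**Figure D1:**
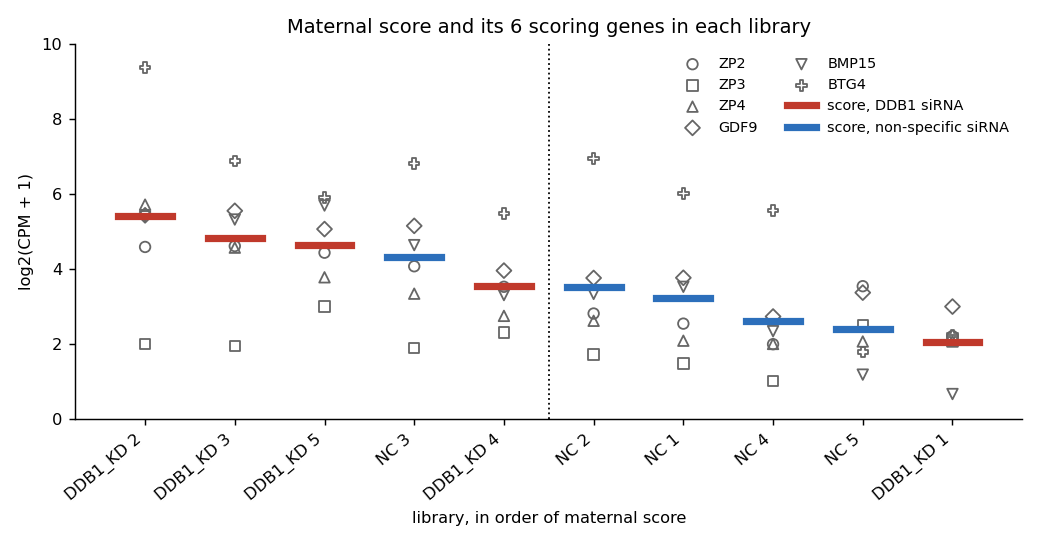
Maternal score (coloured bars, red for DDB1 siRNA and blue for non-specific siRNA) and the 6 scoring genes (open symbols) as log2(CPM + 1) for each library, in order of the score; the dotted line is the class boundary. KD4 at 3.55 and NC2 at 3.53 meet at the boundary, and BTG4 spreads most.

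Counts per library totalled 32466912 to 47737219 in the high and 34975071 to 50911295 in the low libraries. Genes of the mitochondrial chromosome took 11.7% to 24.4% of counts in the high and 8.58% to 18.4% in the low libraries, and ribosomal protein genes took 9.44% to 13.6% and 11.2% to 15.1%. Of 14 cumulus and granulosa cell markers in the table, 5 had no count in any library, FSHR, CYP11A1 and AMH among them, and the summed FPKM (fragments per kilobase, scaled to library size) of the list was 2.24 to 24.2 in the high and 3.19 to 45.2 in the low libraries. Fibroblast markers summed to 0.998 to 4.06 FPKM in the high and 2.16 to 3.44 in the low libraries, and blood cell markers to 2.69 to 6.74 and 2.53 to 11.8 FPKM. The part of these differences in the results below was not tested.

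Whether other genes followed the scoring genes was asked in 2 ways, with treatment in the fit each time (edgeR's quasi-likelihood test, 8470 genes with a mean FPKM of at least 1, Benjamini-Hochberg adjusted p under 0.05). Between the 2 classes, no gene passed in either direction (0.0% and 0.0% called). At an unadjusted p under 0.05, 296 genes were higher in the high libraries (3.49%) and 123 were lower (1.45%). DESeq2 with the same terms called 61 genes higher (0.72%) and 8 lower (0.0945%), and limma called 0 and 0. On the score itself as a continuous term, chosen as an alternative to the classes, edgeR called 189 genes that rose with the score (2.23%) and 12 that fell (0.142%). The slopes of the 189 ran from 0.370 to 3.33 log2 units per unit of score, with a median of 1.12, and those of the 12 from -1.30 to -0.496. At an unadjusted p under 0.05, slopes were positive for 840 genes (9.92%) and negative for 701 (8.28%). Slopes within the DDB1_KD libraries and within the NC libraries were both positive for all 189, against 30.8% of all genes tested, but the same libraries chose the 189. Leaving out 1 library moved the count of genes that rose to 75 without KD1, 91 without NC3 and 103 without KD2. Without any other library it was 137 to 188. For genes that fell, the 12 became 2 without KD2, KD3 or NC3, 3 without NC1 or NC4, 6 without NC2, 7 without NC5 and 25 without KD4.

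KD4 has the lowest score of the high class, next to NC2, so genes chosen for rising with the score tend to be lower there than in the other high libraries. Its score was above those of the low libraries, so that choice does not place KD4 below them. Of the 189, KD4 was below the other 4 high libraries in 181 and below at least 1 low library in 185, which describes the members and supports nothing. Over all genes tested, KD4 was below the other 4 high libraries for 28.5% and above them for 29.6%. It was below at least 1 low library for 83.0% of all genes tested. For 2 of the 189 all 5 high libraries lay above all 5 low ones. Among all 8470 genes, such separation was seen for 48 higher (0.567%) and 39 lower genes (0.46%).

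The 10 genes highest in the maternal-high libraries by p did not pass adjustment in edgeR's class comparison, and 7 of them rose with the score. In DESeq2's class comparison all 10 passed, with adjusted p from 5.49e-06 for ACCSL to 0.0277 for NLRP13. Adjusted p-values printed below are edgeR's unless DESeq2 is named. ACCSL had 30.6, 26.3, 21.3, 48.3 and 3.72 FPKM in the high libraries and 4.89, 4.39, 3.94, 4.15 and 2.01 FPKM in the low ones. KD4 was thus among the low libraries for ACCSL, and NC3 was the highest of all. Its class difference was 3.37 on the log2 scale (SE 0.55, adjusted p = 0.480), and its slope was 1.45 per unit of score (SE 0.22, adjusted p = 0.00759). ISL1, a LIM-homeodomain transcription factor, had 5.34, 4.51, 3.02, 4.45 and 1.14 FPKM in the high and 0.923, 1.27, 0.623, 0.429 and 0.175 FPKM in the low libraries. NC1 was above KD4, and NC3 was above KD5. ISL1 had a slope of 1.53 (SE 0.17, adjusted p = 0.00223). CHODL, the membrane lectin chondrolectin, went from 30.3 FPKM in KD2 to 5.69 in KD4 and from 6.11 in NC1 to 0.735 in NC5, with a slope of 1.71 (SE 0.18, adjusted p = 0.00223).

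Among the 189 genes that rose with the score, 44 reached the mean FPKM minimum of 1 only through the high libraries (23.3%, against 3.72% of all genes tested), so that a difference was built into their selection. ISL1, GABRR2, PCOLCE2, IL12B and CPEB1 are the named calls of that kind. The other called genes of the 10 highest were GABRR2, a GABA receptor subunit, with a slope of 1.23 (SE 0.27), PCOLCE2, an enhancer of procollagen processing, with 1.52 (SE 0.28), FDFT1, the squalene synthase, with 1.02 (SE 0.22), and IL12B, a cytokine subunit. IL12B had 3.70, 1.20, 3.60, 1.90 and 0.349 FPKM in the high libraries, at most 0.273 FPKM in the low ones and no count in KD1. MAGEB3, NLRP13 and KAZN did not pass on the score either (adjusted p = 0.0956, 0.101 and 0.0680), and NLRP13 too reached the minimum only through the high libraries. MAGEB3, of the MAGE cancer and germline antigen family, had 5.12 to 14.7 FPKM in the high and 0.475 to 5.37 FPKM in the low libraries. KD1 held the lowest MAGEB3 value by far, the next being 2.01 FPKM in NC4.

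The 5 genes with the smallest p on the score, named after their values were seen, were PEX5L, EHF, CHODL, ISL1 and DEUP1. PEX5L, a relative of the peroxisomal import receptor, had 24.3, 17.5, 18.6, 18.6 and 2.81 FPKM in the high and 5.58, 6.65, 2.12, 0.949 and 0.794 FPKM in the low libraries. NC3 matched KD5, and KD4 lay between NC2 and NC4. PEX5L had a slope of 1.70 (SE 0.18), the ETS-family factor EHF one of 1.53 (SE 0.17) and DEUP1, a protein of centriole amplification, one of 1.23 (SE 0.14). Of 27 named genes that passed on the score, 8 still passed whichever library was left out: ACCSL, ATF6, CHODL, DEUP1, EHF, ISL1, PEX5L and WEE2. Of the 27, 16 no longer passed without KD1, 16 without NC3, 14 without KD2, 12 without KD3, 11 without NC4 and 10 without NC5. Omitting KD4, KD5, NC1 or NC2 ended 4 to 6 of these calls.

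In the other direction, the 10 lower genes with the smallest p differed less. PNP, the purine nucleoside phosphorylase of nucleoside salvage, had 150, 99.9, 110, 106 and 124 FPKM in the high and 205, 199, 212, 152 and 328 FPKM in the low libraries. Every high library was below every low one on the FPKM scale, though KD2 and NC5 were close, and KD1 was the highest. The class difference of PNP was -1.21 (SE 0.22, adjusted p = 0.705). ALDH2, the mitochondrial aldehyde dehydrogenase, differed by -1.24 (SE 0.29), the adhesion molecule EPCAM by -1.30 (SE 0.34) and the histone gene HIST1H2BD by -1.49 (SE 0.41). VPS51, RHPN2, SMPX and PDZD8 differed by -2.003, -1.31, -1.80 and -1.14, and VPS51 reached the FPKM minimum only through the low libraries. None of these 8 passed on the score. Between the classes, DESeq2 called PNP (adjusted p = 0.00441), ALDH2, EPCAM, VPS51 and PDZD8, but not HIST1H2BD, RHPN2 or SMPX.

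KIAA1191 and ASPH were the 2 of the 10 that fell with the score, and DESeq2 called both between the classes (adjusted p = 0.0447 and 0.0305). KIAA1191 had 5.05, 4.48, 3.33, 4.25 and 9.10 FPKM in the high and 8.73, 7.21, 12.1, 10.8 and 12.2 FPKM in the low libraries, with KD4 among the low ones. Its slope was -0.54 (SE 0.11, adjusted p = 0.0296), and that of ASPH was -0.53 (SE 0.12, adjusted p = 0.0368). BNIP3, a receptor of mitophagy named after its values were seen, had 3.56, 6.97, 12.4, 5.90 and 36.4 FPKM in the high and 15.3, 19.0, 27.8, 32.0 and 23.6 FPKM in the low libraries. KD4 was the highest library and KD2 the lowest. The slope of BNIP3 was -0.96 (SE 0.21, adjusted p = 0.0369) and that of MLF2, chosen likewise, -0.91 (SE 0.20).

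**Figure D2:**
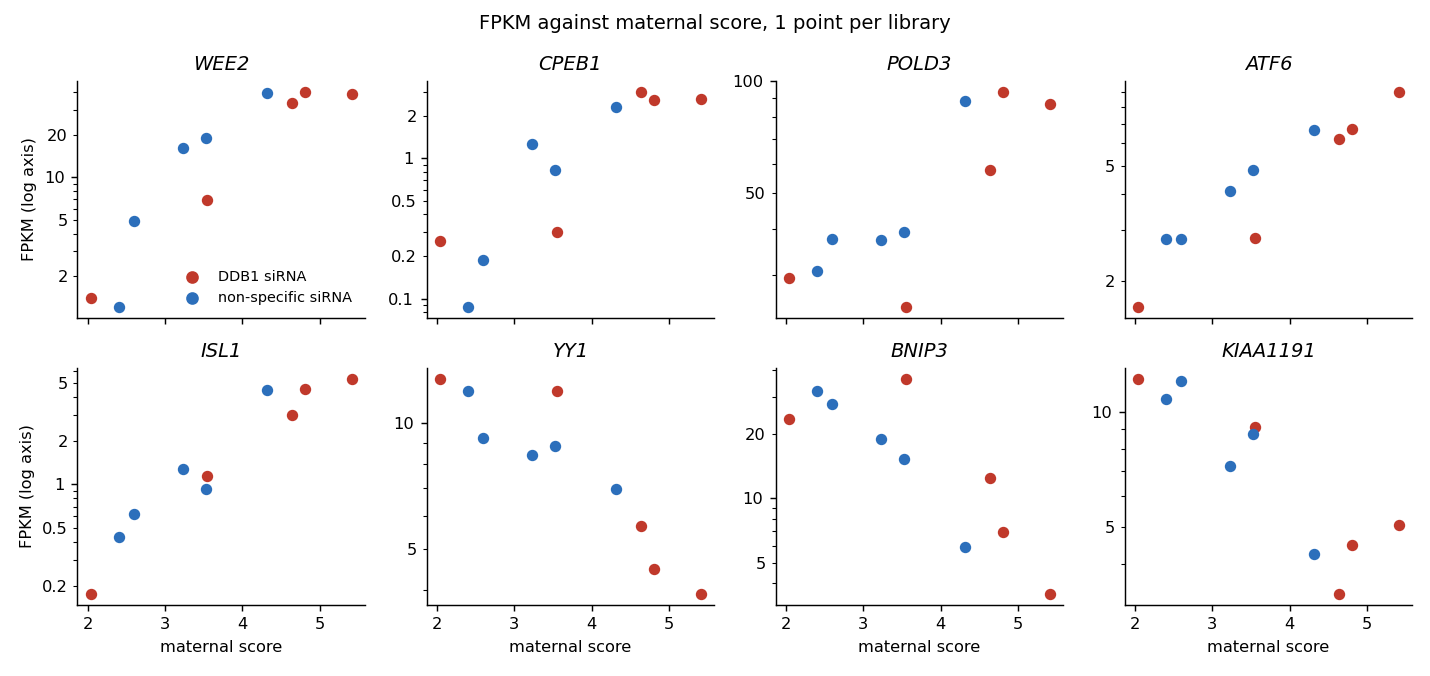
FPKM (log axis) against maternal score for 8 genes, 1 point per library, red for DDB1 siRNA and blue for non-specific siRNA. WEE2, CPEB1, POLD3, ATF6 and ISL1 rise with the score, YY1, BNIP3 and KIAA1191 fall, and KD4 at a score of 3.55 lies off the other points for WEE2, POLD3 and BNIP3.

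Oocyte and maternal transcripts that were not used for scoring were mostly higher in the high libraries. Of 56 listed, 48 were in the table and 32 passed the FPKM minimum. Of these 32, 28 were higher in the high class and 4 lower, with a median log2 difference of 0.68 against -0.01 over all genes, where 49.2% were higher. Of the 32, 2 reached the minimum only through the high libraries. On the score 7 rose and none fell, against 2.23% of all genes that rose and 0.142% that fell. ACCSL, described above, is 1 of the 7, and NLRP13 is among the 32. The mean level of the list was 5.41 log2 CPM in KD2, 5.03 in KD3, 4.68 in KD5, 5.12 in NC3 and 4.12 in KD4, and 4.43, 4.19, 4.17, 3.65 and 3.38 in NC2, NC1, NC4, NC5 and KD1. NC3 was thus the second highest and KD4 lay below 3 of the low libraries. KD2 held the highest value of 17 of the 32 genes (53.1%, against 16.8% of all genes), and KD1 the lowest of 9 (28.1%, against 7.79%). The median was 0.45 to 0.76 with 1 library left out, lowest without KD2.

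The kinase WEE2, which holds the oocyte in meiotic arrest, had 39.1, 40.3, 33.4, 39.7 and 6.90 FPKM in the high and 18.9, 16.1, 4.95, 1.21 and 1.41 FPKM in the low libraries. Those 4 libraries were level with each other, and NC2 and NC1 were above KD4. Its slope was 1.74 (SE 0.24, adjusted p = 0.00496). MOS, the kinase of metaphase arrest, had 6.72 to 15.6 FPKM in the 4 highest libraries, 6.82 in NC2 and 0.729 to 2.54 in the rest, with a slope of 1.25 (SE 0.23). KPNA7, an importin of oocytes and early embryos, had a slope of 1.25 (SE 0.24). It had 67.1 FPKM in KD2 and 1.54 (KD1) to 15.8 FPKM (KD4) elsewhere. RSPO2, a WNT co-activator made by oocytes, had a slope of 2.16 (SE 0.48), with no count in KD1, so that the size depends on the prior count. DNMT1, the maintenance DNA methyltransferase, had a slope of 0.85 (SE 0.15). OOSP2, a secreted oocyte protein, had 281 FPKM in KD2, 0.832 to 52.9 FPKM elsewhere and a slope of 2.23 (SE 0.40). H1FOO, the oocyte linker histone, was at 38.6 to 57.7 FPKM in the 4 highest libraries, at 42.4 and 41.6 in NC2 and NC1, at 15.5 in KD4, at 21.4 in NC4 and at 2.47 and 4.06 in NC5 and KD1 (slope 1.20, SE 0.29, adjusted p = 0.0531). NPM2, the oocyte nucleoplasmin, and NLRP9 did not pass on the score (adjusted p = 0.195 and 0.0773). Between the classes, DESeq2 called NPM2 and NLRP9 (adjusted p = 0.0101 and 0.0096). NPM2 had no count in KD1 and reached the minimum only through the high libraries. ZAR1 was below the FPKM minimum.

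Of the subcortical maternal complex, a protein lattice of the egg cortex, 5 of 10 listed genes were in the table and 2 passed the minimum. PADI6, its arginine deiminase, had 4.27, 2.93, 3.84, 2.91 and 2.76 FPKM in the high and 0.652, 1.73, 0.954, 1.46 and 0.323 FPKM in the low libraries. It was one of the 48 genes whose classes did not overlap, KD4 included, but its slope of 0.85 (SE 0.26) did not pass (adjusted p = 0.122). DESeq2 called PADI6 between the classes (adjusted p = 0.0108). OOEP, a KH-domain protein of the complex, rose with the score (slope 1.19, SE 0.21, adjusted p = 0.0145), from 1.16 FPKM in KD1 to 26.8 in KD2. KD2 stood apart, the next values being 12.6 FPKM in NC3 and 11.8 in NC1. KD4 at 3.58 FPKM was below NC2, NC1 and NC5.

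DPPA5, a KH-domain gene listed here with pluripotency, lies beside OOEP in the table's coordinates on chromosome 1 (52986462 to 52987618, OOEP at 53006898 to 53007877). It had 400, 144, 96.1, 198 and 42.1 FPKM in the high and 50.1, 76.4, 50.4, 30.1 and 58.5 FPKM in the low libraries. Its slope was 0.82 (SE 0.18, adjusted p = 0.0351), the only call among 18 pluripotency and epiblast genes tested, where 2.23% of all genes rose. The other pluripotency genes pointed mostly the other way: 12 of 18 were lower in the high class, and the median difference was -0.25 (-0.14 without KD2). POU5F1 had 33.6, 46.5, 27.8, 62.1 and 119 FPKM in the high and 52.3, 123, 68.6, 98.7 and 69.5 FPKM in the low libraries, so that 3 DDB1_KD libraries were lowest and KD4 was near the top. Its slope of -0.40 (SE 0.16) and that of TBX3 of -0.39 (SE 0.13) did not pass (adjusted p = 0.230 and 0.162). SOX2 was at 0.286 to 2.39 FPKM in the high and 0.346 to 1.60 in the low libraries. NANOG was highest in KD2 at 11.2 FPKM and in NC4 at 6.62 FPKM, and lowest in NC2 at 0.354.

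Genes of maternal RNA clearance and translational control split less clearly, with 25 of 42 higher, a median of 0.14 (0.06 without KD1, 0.25 without NC3) and 1 call. That 1 call among 42 genes was close to the 2.23% of all genes that rose with the score. CPEB1 had 2.66, 2.63, 2.99, 2.33 and 0.298 FPKM in the high and 0.826, 1.26, 0.189, 0.0870 and 0.259 FPKM in the low libraries. The 4 highest libraries were within 2.33 to 2.99 FPKM and KD4 was again with the low ones (slope 1.41, SE 0.31, adjusted p = 0.0373). CPEB1 reached the FPKM minimum only through the high libraries, and its call was lost when any library other than NC1 was left out. TUT4, which uridylates messages for decay, differed by 1.10 (SE 0.50), and the antiproliferative gene BTG1 by -0.76 (SE 0.37), both without a call.

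Transcription factors of embryonic genome activation were lower in the high class for 11 of 13, with a median of -0.32 (-0.19 without NC2). YY1, a zinc-finger factor, was the one that fell with the score, against 0.142% of all genes. It had 3.91, 4.49, 5.69, 6.98 and 11.9 FPKM in the high and 8.84, 8.41, 9.25, 12.0 and 12.8 FPKM in the low libraries. The 4 highest scores had the 4 lowest YY1 values in reverse order, and KD4 was among the low libraries. Its slope was -0.50 (SE 0.10, adjusted p = 0.0202), and the call was lost without KD1, KD2, KD3 or NC3. MYCN differed by -0.59 (SE 0.31) and KLF4 by -0.66 (SE 0.34), without a call.

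The trophectoderm list, genes of the outer lineage of the blastocyst, was lower in the high class for 19 of 23 genes, with a median of -0.28, and none passed on either test. Much of this lay in KD2. The list's mean was 2.44 log2 CPM in KD2 and 4.48 to 5.73 in the other 9 libraries. KD2 held the lowest value of 14 of the 23 genes (60.9%, against 19.2% of all genes). The keratin KRT8 had 0.0754 FPKM in KD2 and 4.44 in KD3, against 33.9 to 179 in the other 8 libraries. Its partner KRT18 had 3.71 in KD2 and 12.6 in KD3, against 108 to 453. The endocytic adaptor DAB2 was at 0.409 in KD2 and 30.6 to 192 elsewhere, and PTGS2, the inducible cyclooxygenase, at 0.0509 and 2.34 to 13.5. GATA3 had no count in KD2, 0.360 FPKM in KD1 and 1.62 to 14.0 FPKM in the others, so it was low at both ends of the score. Its class difference was positive, at 1.03 (SE 1.998), and its slope was -0.247 (SE 0.736). The class difference of PTGS2 was also positive, at 0.863 (SE 1.09), while those of KRT8, KRT18 and DAB2 were negative. KRT8, KRT18, DAB2 and PTGS2 were named after their values were seen. The 2 libraries with the highest scores were thus the 2 with the least keratin, while KD1, with the lowest score, had 38.4 FPKM of KRT8. The list median was -0.09 without KD2, -0.15 without KD3 or NC1, -0.16 without NC3, -0.46 without KD1 and -0.55 without KD4.

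Among the other trophectoderm genes, CLDN4, a claudin of tight junctions, had 30.4, 126, 119, 178 and 277 FPKM in the high and 154, 259, 279, 347 and 218 FPKM in the low libraries. Its slope of -0.60 (SE 0.18) did not pass (adjusted p = 0.118). ATP1B1, the beta subunit of the sodium pump, was at 0.410 to 1.41 FPKM in the 4 highest libraries, at 5.64 in KD4 and at 2.18 to 8.17 in the low libraries (slope -0.81, SE 0.39, adjusted p = 0.289). TEAD4 was at 4.24 to 5.14 FPKM in the 4 highest libraries, at 14.6 in KD4 and at 4.28 to 10.5 in the low ones, which overlap (slope -0.40, SE 0.15, adjusted p = 0.198). Among 12 lineage, cell cycle, sodium pump, adhesion and chaperone genes followed whatever their p, none passed on the score (adjusted p = 0.198 to 0.883), and 2 had an unadjusted p under 0.05.

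Cell junction and polarity genes were lower for 20 of 31, with a median of -0.15 (-0.19 without KD4 to 0.014 without NC3). DSP, the desmosomal plaque protein, had 1.01, 1.06, 1.01, 1.48 and 1.88 FPKM in the high and 2.24, 2.30, 1.73, 1.99 and 1.64 FPKM in the low libraries. On the scaled log2 CPM its classes did not overlap, while on FPKM KD4 was above NC4 and KD1 (difference -0.50, SE 0.28). E-cadherin CDH1 had a slope of 0.21 (SE 0.10, adjusted p = 0.305). Of 21 primitive endoderm genes, 6 were tested, 3 in each direction, and GATA6 had 19.8 to 68.7 FPKM in the high and 39.9 to 58.3 in the low libraries. TTR, a transport protein, had 4.30, 5.89 and 5.38 FPKM in KD3, KD5 and NC3, no count in KD4 and at most 0.816 FPKM elsewhere, and reached the minimum only through the high libraries.

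**Figure D3:**
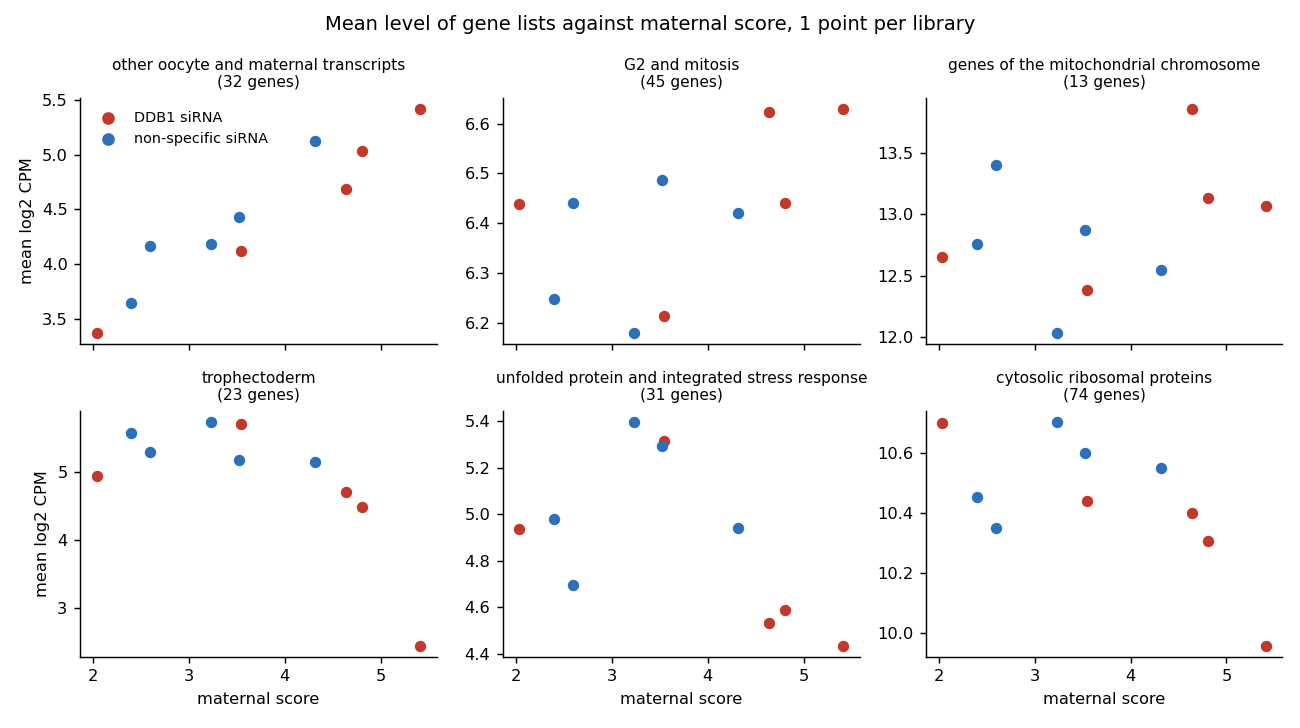
Mean log2 CPM of 6 gene lists against maternal score, 1 point per library, red for DDB1 siRNA and blue for non-specific siRNA. Other maternal transcripts climb from 3.38 to 5.41, and the trophectoderm mean of 2.44 belongs to KD2 alone.

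Genes of G2 and mitosis were higher in the high class for 32 of 45, with a median of 0.12 (0.02 without KD1 to 0.22 without KD4). NDC80, a kinetochore protein, was the single call, with 24.99, 18.8, 15.5, 15.8 and 11.2 FPKM in the high and 14.6, 12.3, 11.9, 8.98 and 9.15 FPKM in the low libraries (slope 0.40, SE 0.09, adjusted p = 0.0441). That call was lost when any library other than KD5 was left out, and 1 call among 45 genes was close to the 2.23% of all genes that rose. TPX2, a spindle assembly factor, had 64.8, 47.5, 45.3, 55.0 and 19.2 FPKM in the high libraries and 38.6, 35.4, 32.9, 26.8 and 31.8 FPKM in the low ones. KD4 was the lowest of all 10 for TPX2, whose slope of 0.35 did not pass (SE 0.12, adjusted p = 0.161), and the mitotic kinase AURKA differed by 0.53 (SE 0.28). CDK1 was at 91.1 to 116 FPKM in KD2, KD3 and KD5, at 50.8 in NC3 and at 27.3 to 58.5 in the other 6. CCNB1 was at 248 to 345 FPKM in KD2, KD3 and KD5, at 177 in NC3 and at 112 to 233 in the other 6.

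Of DNA replication genes 20 of 50 were higher, with a median of -0.07 (-0.16 without KD1 to 0.0019 without NC3). POLD3, a subunit of DNA polymerase delta, was the 1 call among the 50, close to the 2.23% of all genes that rose with the score. It had 87.2, 93.8, 57.8, 88.3 and 24.6 FPKM in the high and 39.3, 37.4, 37.7, 30.7 and 29.5 FPKM in the low libraries. The 4 highest scores stood above all others, and KD4 was the lowest library. Its slope was 0.58 (SE 0.14, adjusted p = 0.0488), a call that was lost when any library other than KD4 was left out. The helicase subunit MCM4 differed by -0.99 (SE 0.54), with 2.36 to 2.56 FPKM in the 4 highest libraries, 8.49 in KD4 and 2.69 to 8.996 in the low ones.

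The unfolded protein and stress response list was lower in the high class for 25 of 31 genes, with a median of -0.27. ATF6, a membrane-bound sensor of the endoplasmic reticulum, went the other way and rose with the score, the 1 call among the 31 (2.23% of all genes rose). It had 9.03, 6.73, 6.20, 6.68 and 2.81 FPKM in the high and 4.86, 4.11, 2.79, 2.79 and 1.63 FPKM in the low libraries. The slope was 0.74 (SE 0.10, adjusted p = 0.00431), with 0.76 within DDB1_KD and 0.70 within NC. HSP90B1, the reticulum chaperone GRP94, had 53.0, 46.5, 42.2, 64.8 and 156 FPKM in the high and 109, 122, 89.4, 65.8 and 119 FPKM in the low libraries. KD4, the highest library for HSP90B1, was among the 4 lowest for ATF6, and the slope of -0.40 of HSP90B1 did not pass (SE 0.16, adjusted p = 0.211). The list's median was 0.0024 without NC3 and -0.34 without KD4. Cytosolic and mitochondrial chaperones were lower for 24 of 31 genes, with a median of -0.13 (-0.27 without KD1, -0.06 without NC3). HSP90AB1 differed by -0.76 (SE 0.42), and HSPA8 was at 326 to 506 FPKM in the high and 322 to 533 in the low libraries.

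Of 74 cytosolic ribosomal protein genes, 68 were lower in the high class, with a median of -0.19, and none passed. RPS23 had 2094, 2578, 2017, 2850 and 2890 FPKM in the high and 3277, 3533, 2740, 2982 and 3330 FPKM in the low libraries, a difference of -0.36 (SE 0.20), and RPS20 differed by -0.35 (SE 0.21). KD2 held the lowest value of 53 of the 74 genes (71.6%, against 19.2% of all genes) and NC1 the highest of 37, against 7.96% of all genes. The median was -0.14 without KD2, -0.05 without KD1 and -0.35 without NC3.

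Genes of the mitochondrial chromosome were higher in the high class for 10 of 13, with a median of 0.11 and no call. The sign differed between the treatments: 13 of 13 slopes were positive within DDB1_KD (median 0.25) and 0 of 13 within NC (median -0.24). The difference in slope did not pass for any gene tested, these 13 included. CYTB, a subunit of respiratory complex III, had 7587, 9857, 12055, 6563 and 6132 FPKM in the high and 5809, 3416, 7878, 7008 and 5808 FPKM in the low libraries. KD5 held the highest value of 11 of the 13 genes and NC1 the lowest of 11 (84.6% each). Over all genes, KD5 held the highest value for 13.9% and NC1 the lowest for 8.32%. The 13 genes share 1 chromosome and are not independent. The list's median was -0.31 without KD1, -0.04 without KD5, 0.04 without NC1, 0.17 without KD4, 0.23 without NC4 and 0.53 without NC3.

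Glycolysis genes were lower for 14 of 23, with a median of -0.07 (-0.18 without KD1 to -0.03 without KD2). On the score 5 of the 23 slopes were positive, against 47.4% of all genes, with a median slope of -0.22 and no call. LDHA had 16.7, 30.2, 18.0, 34.2 and 24.02 FPKM in the high and 16.3, 17.4, 16.1, 18.4 and 15.3 FPKM in the low libraries, a difference of 0.72 (SE 0.26), and PDK3, which shuts off pyruvate dehydrogenase, differed by -0.72 (SE 0.32). Apoptosis genes divided into 12 higher and 11 lower, with a median of 0.07, and nuclear genes of oxidative phosphorylation into 29 higher and 32 lower. Proteasome genes were higher for 22 of 34, with a median of 0.07. Mitochondrial ribosomal proteins were higher for 28 of 74, ribosome biogenesis genes for 17 of 52, splicing factors for 19 of 54, DNA damage genes for 17 of 35 and chromatin genes for 11 of 24. In these 5 lists only DNMT1, also among the maternal transcripts above, passed on the score. Among 20 lipid genes, of which 8 were higher, ACSL3, an acyl-CoA synthetase named after its values were seen, rose with the score. Of all genes tested 2.23% rose, so these single calls say little about their lists.

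**Figure D4:**
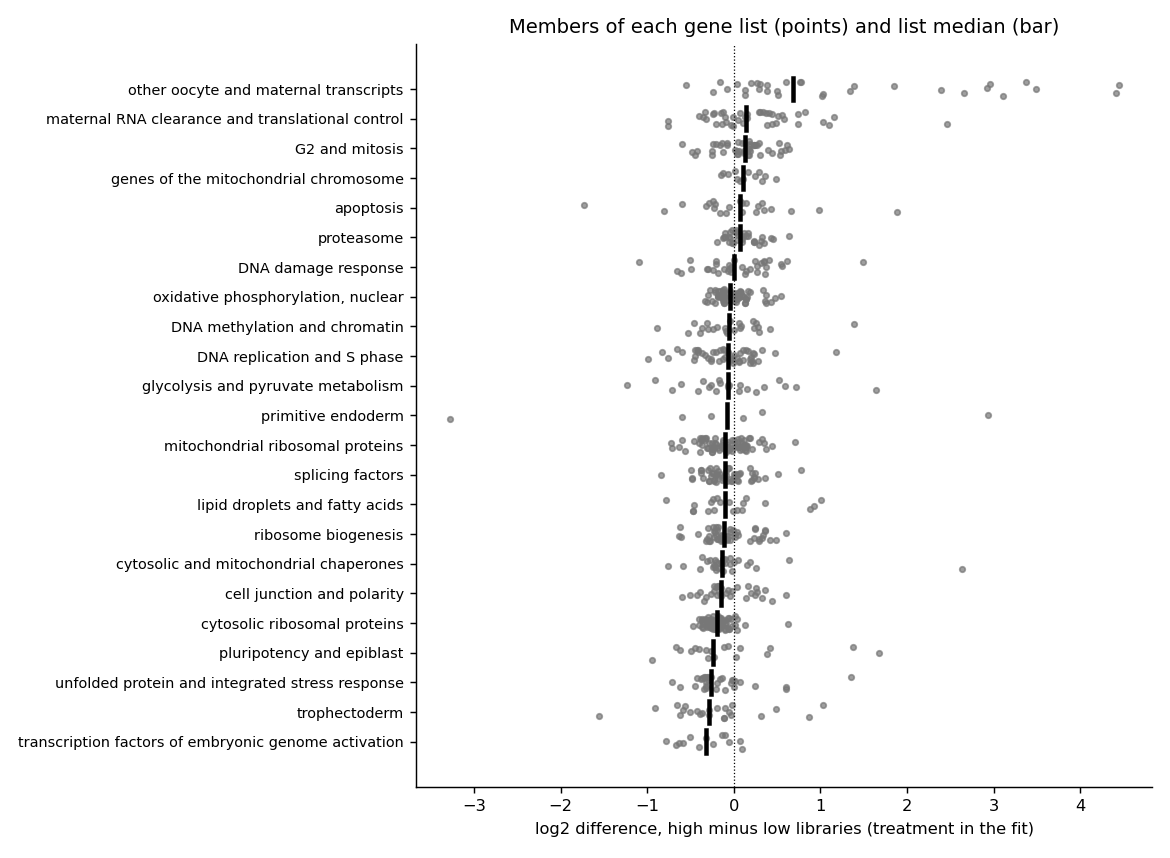
Log2 difference, high minus low libraries with treatment in the fit, for each tested member of the gene lists with at least 6 tested genes (points) and the list median (bar). Other maternal transcripts extend to the right of all other lists, and the 74 ribosomal protein genes form a narrow group left of 0.

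Slopes computed within each treatment show which lists moved alike in both. Other maternal transcripts had a median slope of 0.38 within DDB1_KD and 0.48 within NC, and 26 of 32 were positive in each. Trophectoderm genes had -0.28 and -0.25, glycolysis genes -0.18 and -0.17, pluripotency genes -0.18 and -0.29, and genome activation factors -0.08 and -0.28. Ribosomal protein genes had -0.15 within DDB1_KD, where 3 of 74 slopes were positive, and 0.07 within NC, where 47 of 74 were. Within NC the unfolded protein list was at 0.04, and within DDB1_KD at -0.17. Each treatment holds 5 libraries, and within DDB1_KD alone 6 genes rose with the score while within NC alone none did.

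**Figure D5:**
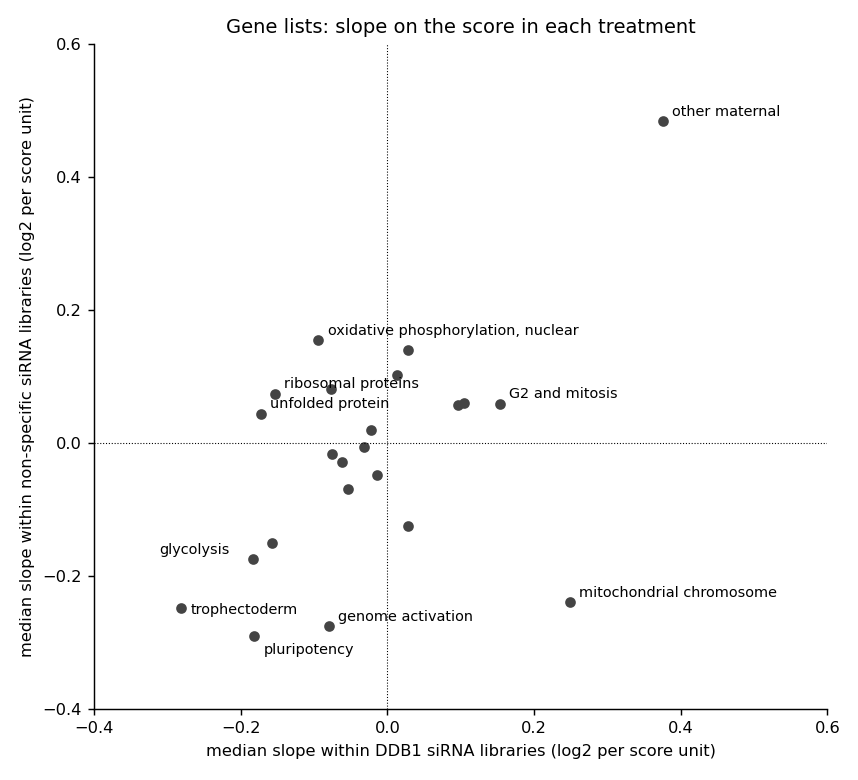
Median slope of each gene list on the maternal score within the DDB1 siRNA libraries (horizontal axis) and within the non-specific siRNA libraries (vertical axis), in log2 units per unit of score. Other maternal transcripts are positive on both axes, at 0.38 and 0.48, and the mitochondrial chromosome is positive on the first and negative on the second, at 0.25 and -0.24.

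The score itself was 4.09 ± 1.33 in DDB1_KD and 3.21 ± 0.765 in NC libraries (SD, n = 5 each), and the difference of 0.876 did not pass an exact two-sided permutation test (p = 0.254, smallest p possible 0.00794). With 1 library left out it was 0.545 to 1.39 (exact permutation p = 0.0397 to 0.444). The 1.39 and the smallest p came without KD1, the DDB1_KD library with the lowest score, where leaving out the lowest value enlarges the difference by itself. Without any other library the smallest p was 0.167. DDB1, the adaptor of CUL4 ubiquitin ligases and the gene targeted, lies on chromosome 2 (10171698 to 10200920, susScr11). It had 1.30, 1.28, 1.55, 1.30 and 0.920 FPKM in KD2, KD3, KD5, KD4 and KD1, and 2.53, 3.12, 3.59, 3.15 and 4.44 FPKM in NC3, NC2, NC1, NC4 and NC5. The treatments did not overlap, and NC3, the 1 NC library in the high class, had the least DDB1 of the NC libraries. With the class in the fit DDB1 differed by -1.37 (SE 0.40, adjusted p = 1.0), without it by -1.39 (SE 0.28, adjusted p = 0.977), and with the score by -1.43 (SE 0.33). YAP1 differed by -1.70 (SE 0.50), -2.05 (SE 0.42) and -1.83 (SE 0.44) in these 3 fits and passed in none. It had 0.271 to 0.947 FPKM in the DDB1_KD and 1.29 to 5.18 FPKM in the NC libraries. YAP1 thus reached the mean FPKM minimum of 1 only through the NC libraries, so that a difference was built into its selection.

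No gene passed for DDB1_KD against NC with the class in the fit, without it, or with the score (0.0% each with and without the class). An unadjusted p under 0.05 was reached by 111 genes with the class (1.31%), by 245 without it (2.89%) and by 201 with the score (2.37%). With the class in the fit DESeq2 called 0 genes and limma 0.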

How the data were processed

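RNA of 10 pig morula libraries was measured, 5 with DDB1 siRNA and 5 with non-specific siRNA, grouped by the sample titles. Per the file headers, each library has FPKM and estimated counts for genes and isoforms. Every estimated count deposited is a whole number, used as it stands. Isoform counts equal FPKM times length times 1 constant, so their sampling error may not be that of read counts, and a count of 0 is listed as an FPKM of 0.0001. The submitters' processing notes name build susScr11 and, with no roles, edgeR, StringTie, HISAT2, fastp, ChIPseeker and HOMER. The strand setting of the counting was not given in the sources used here, and 20 of the 78 genes named beside the scoring genes overlap a gene on the other strand, whose reads cannot be told apart. Symbols come from the table for 17451 of 24358 genes, from Ensembl names for 951 and from RefSeq (Sscrofa11.1) for 719.

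Each library's maternal score was the mean log2(CPM + 1) of 6 scoring genes. edgeR 4.0.16 (quasi-likelihood, TMM, R 4.3.3) was fitted to treatment plus class, or plus the score, on 8476 genes with a mean FPKM of at least 1, 6 of them scoring genes. P-values were adjusted over all genes (Benjamini-Hochberg, threshold 0.05). Gene list values and overlaps use TMM-scaled log2 CPM with a prior count of 2. DESeq2 1.42.0, limma 3.58.1 (pseudocount 1), other scalings, filters and scores, the replicate number as a block and each library left out were alternatives. On simulated data drawn from these libraries, class differences of log2 1, 2, 3 and 4 were found in 6%, 68%, 90% and 92% of altered genes, beside 3 false calls. Slopes of 0.5, 1, 1.5 and 2 on the score were found in 24%, 80%, 96% and 98% (6 false), and treatment differences of log2 1, 2, 3 and 4 in 4%, 52%, 86% and 98% (7 false).

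The text names DDB1, 10 genes in each direction with a fold of at least 2 and the smallest p, up to 5 members of each list described and a set of lineage and cell cycle genes. Genes picked by the score were named after their values were seen, and list members called on the score likewise. The libraries, the 27 gene lists and the tests were chosen with earlier results of these data known. Library totals were 32466912 to 50911295 counts.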

Additional observations from a re-analysis of the deposited data

Results flagged for a closer look

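A library's value was far from the other 4 of its treatment group for 12 of the genes named, on the TMM-scaled log2 CPM scale. Of 190 groups of 5 checked, chance alone would mark about 1 in 20.

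KD1, the DDB1_KD library in the low class, was the outlying library for 5 genes. It had MAGEB3 at -0.73 against 2.51 to 3.31 in the other DDB1_KD libraries, PADI6 at -0.16 against 2.64 to 3.38, and PNP at 9.43 against 7.75 to 8.17. RSPO2 was at -4.37 in KD1, where it had no count, against 2.03 to 4.07. IMPDH2, the inosine monophosphate dehydrogenase of guanine nucleotide synthesis, was at 2.39 in KD1 against 6.62 to 7.35.

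NC3, the NC library in the high class, was the outlying library for 3 genes. ACCSL was at 7.12 in NC3 against 3.53 to 3.93 in the other NC libraries, LDHA at 6.70 against 5.73 to 5.75, and PDZD8 at 3.14 against 4.41 to 4.64. Within each treatment the class difference compares that library with the other 4, so these values set the difference for their gene. ACCSL, PDZD8, MAGEB3 and PNP were named for a small p of that difference. Their far values in KD1 or NC3 are therefore partly built into their choice.

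KD2, the library with the highest score, had DAB2 at 1.71 against 8.07 to 9.30 in the other DDB1_KD libraries and PTGS2 at -1.54 against 4.10 to 6.17. NC5 had MLF2 at 6.35 against 3.18 to 4.06 and H1FOO at 1.46 against 4.70 to 5.68.

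IMPDH2 was also the one gene whose class difference differed between the treatments in edgeR's test of the interaction, by 4.98 on the log2 scale (SE 0.60, adjusted p = 0.0497). It had 1.01 FPKM in KD1 and 19.0 to 36.7 FPKM in the other 9 libraries, so the value rests on KD1. With the score in place of the class, no gene passed the interaction test.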

How the results depend on the processing

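Class and treatment are nearly the same split, the class boundary lies between nearly equal scores, and the counts may be derived from coverage. The class comparison called 0 genes in each direction under the alternatives not listed here. Higher and lower counts were 189 and 12 with the continuous score, 61 and 8 with DESeq2, 1 and 1 for the 4 highest against the 4 lowest scores, 1 and 0 with the replicate block, and 1 and 0 within NC. Leaving out 1 library gave 0 to 1 genes in each direction. For genes that rose and fell with the score, the alternatives were chosen after seeing the data. They gave 303 and 49 without the treatment term, 6 and 0 within DDB1_KD, 0 and 0 within NC, 468 and 147 with DESeq2, 226 and 15 with limma, 217 and 9 with total-count scaling, and 75 to 188 and 2 to 25 with 1 library left out. With the replicate block 14 rose and 0 fell. Same-numbered libraries of the treatments correlated between -0.14 and 0.35, and 1 of 5 DDB1_KD libraries correlated best with its own number. These few correlations cannot decide whether the numbers mark shared cultures or batches. Under the block 2 of the 27 named genes called on the score were still called, and medians changed sign for the mitochondrial chromosome (-0.56), the unfolded protein list (0.10), G2 and mitosis (-0.04) and junctions (0.0098). The trophectoderm median shrank from -0.28 to -0.0044 under the block and that of maternal RNA clearance from 0.14 to 0.016. Other maternal transcripts went from 0.68 to 0.84. DDB1_KD against NC with the class called 1 gene under the block, 0 to 1 with 1 library left out and 0 otherwise. DDB1, which lacks a value at a mean FPKM of at least 5, stayed between -1.90 and -0.84 with 1 library left out, and the difference of the score between 0.545 and 1.39, under the threshold of 0.05 only without KD1, the lowest DDB1_KD score. For that score difference the paired sign-flip test, which uses the replicate block, gave 0.876 (exact permutation p = 0.25). Among genes whose slope or difference the text prints, 2 slopes changed sign, neither called: ALDH2 was at 0.031 without KD1 (down to -0.38 without KD4) and RPS23 at 0.027 within NC. Of the 13 genes given by their levels alone, none of them called on the score, 11 had a slope of the other sign within DDB1_KD or within NC. The causes were not tested. Self-tests at this size recovered few class or treatment differences of log2 1, so small differences could be missed. Larger class differences could be missed too, as their recovery rates may be too high.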
